A study of Homo sapiens with 6 samples.

Results

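Described here are 51 genes of neuronal differentiation and of the synapse in AF22 cells, an established line of human neural stem cells, with and without knockdown of BMI1. The genes came as a list of symbols in 8 roles: cytoskeleton, RNA binding, transcription factors, axonal adhesion, synaptic adhesion, synaptic vesicle and kinase, transmitter, and secretory granule. All 51 were found among the 26485 gene symbols of the deposited count tables. The series holds 6 libraries of total RNA in 2 groups of 3. The 3 control libraries carry shControl and have the genotype WT, and the 3 knockdown libraries have the genotype BMI1/COMMD3-BMI1 knockdown, which names BMI1 and its read-through transcript with the neighbouring gene COMMD3. The sources used here give no hairpin sequences, vector or time after knockdown, and they do not say whether libraries of a group came from separate cultures. P-values therefore rest on library-to-library spread, part or all of which may be technical.

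Neural stem cells divide and keep neuronal genes low or silent. On differentiation they switch on proneural transcription factors and cytoskeletal genes, and later the genes of transmitter release. REST, a zinc finger repressor, binds the RE1 element and holds many neuronal genes silent outside neurons. BMI1 belongs to Polycomb repressive complex 1, which acts on the chromatin of many developmental genes and is known for its role in stem cell self-renewal.

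Total counts ran from 4962745 to 9640349 per library. In control libraries 1, 2 and 3 BMI1 itself stood at 85.1, 89.96 and 87.4 CPM (counts scaled to the library total), and in knockdown libraries 1, 2 and 3 at 39.9, 21.5 and 26.2 CPM. Its log2 fold change was -1.61 (SE 0.194) in edgeR's quasi-likelihood test without pairing (adjusted p 0.163) and -1.64 (SE 0.155) with the library number as a block (adjusted p 0.00836). COMMD3-BMI1 was listed at 0 counts in all 6 libraries, so the check of the targets rests on BMI1. How reads of the read-through were assigned is not known, so 0 listed counts need not mean its absence. COMMD3 was at 23.9, 27.5 and 27.4 CPM in control and at 31.6, 33.4 and 32.5 CPM in knockdown libraries. With the library number as a block its log2 fold change was 0.30 (SE 0.097, edgeR adjusted p 0.0804). Knockdown library 2 stood apart, at 40.2 on the first principal component against -25.5 to 11.5 for the other 5. Because libraries with the same number shared deviations across genes, the fit with that block, called the paired fit below, is given beside the unpaired test. The stem cell genes NES and SOX2 were at 577 to 1068 CPM and 282 to 386 CPM, and HES5, another stem cell gene, was listed at 0 counts in every library.

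The 51 genes covered a wide range of levels in control cells. After a filter on low counts 31 of them were tested and 20 were not. In the control libraries 32 genes had a mean of at least 1 CPM, and 29 had at least 5 CPM. Promoters of 4 genes picked as examples are shown. STMN3, DPYSL3 and TUBB3 were abundant, and DCX had 17 counts over all 6 libraries. The 4 are not the ends of this range, and genes that go against their contrast in CpG are given below. The printed windows are the 250 bases before a RefSeq start (GRCh38.p14), 5′ to 3′ along the gene, with every CpG dinucleotide in capitals. Where a gene had several starts, the one with the highest coordinate is shown.
STMN3 (chr20:63652767-63653016, minus strand): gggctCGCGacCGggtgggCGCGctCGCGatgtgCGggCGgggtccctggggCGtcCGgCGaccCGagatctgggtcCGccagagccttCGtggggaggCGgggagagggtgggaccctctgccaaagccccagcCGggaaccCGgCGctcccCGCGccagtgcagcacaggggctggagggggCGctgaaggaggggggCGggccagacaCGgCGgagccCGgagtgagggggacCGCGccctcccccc
DPYSL3 (chr5:147510069-147510318, minus strand): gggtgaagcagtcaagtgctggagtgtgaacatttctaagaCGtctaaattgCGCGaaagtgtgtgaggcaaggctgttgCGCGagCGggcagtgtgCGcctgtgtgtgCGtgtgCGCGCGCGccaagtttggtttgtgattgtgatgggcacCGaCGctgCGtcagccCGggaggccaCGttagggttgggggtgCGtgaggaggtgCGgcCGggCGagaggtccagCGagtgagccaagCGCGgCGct
TUBB3 (chr16:89923092-89923341, plus strand): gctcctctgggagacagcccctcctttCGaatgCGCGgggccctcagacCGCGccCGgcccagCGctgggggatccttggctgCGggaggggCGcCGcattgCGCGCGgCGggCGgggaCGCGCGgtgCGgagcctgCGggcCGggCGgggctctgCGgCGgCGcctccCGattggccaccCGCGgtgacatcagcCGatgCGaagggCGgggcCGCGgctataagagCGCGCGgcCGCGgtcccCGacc
DCX (chrX:111412193-111412442, minus strand): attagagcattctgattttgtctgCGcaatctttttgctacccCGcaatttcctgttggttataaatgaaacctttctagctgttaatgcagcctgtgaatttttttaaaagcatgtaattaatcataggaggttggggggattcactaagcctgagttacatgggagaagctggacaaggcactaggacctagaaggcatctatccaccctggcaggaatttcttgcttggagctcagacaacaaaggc
These windows hold 28 CpG in STMN3, 25 in DPYSL3, 39 in TUBB3 and 2 in DCX. The other start of TUBB3, which lies upstream of the printed one, had 9. The other start of DPYSL3 had 21, and the remaining starts of DCX had 1 and 3.

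RefSeq promoters were matched for 37 of the 51 genes, with 88 starts in all. Averaged over the starts of each gene, the median was 18.5 CpG in the 22 matched genes that were tested and 8.25 in the 15 that were not, and the median over all 35116 single promoters was 11. There were exceptions on both sides. GAD1, GAD2, NEUROD1 and CAMK2B had 23, 26.5, 24 and 37 CpG but means of at most 0.589 CPM in control. MAP2, L1CAM and NLGN2, with 6, 6.5 and 2 CpG on average, were at 489, 163 and 148 CPM.

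A rarer feature was the RE1 element. The letters CAGCACC followed within 10 bases by GGACAGC, its left and right parts, were searched on both strands in windows of 300 bases (250 before to 50 after the start). They were found in 38 of the 35116 promoters (0.108%), and in 2 of the 88 promoters of the 37 matched genes, each in a different gene. Both are shown with the searched letters in capitals.
GAD2 (chr10:26216289-26216312, plus strand): gtggCAGCACCcgGGACAGCggcc
SCG3 (chr15:51681509-51681538, plus strand): acttCAGCACCcacagggcGGACAGCgctc
The gap was 2 bases in GAD2 and 8 in SCG3. GAD2 had 1 count in all 6 libraries together, and SCG3 was at 3.04 ± 0.263 CPM in control (SD, n = 3). A match is a run of letters and not a measured binding site.

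Cytoskeletal genes held most of the highest levels among the 51, with RBFOX2 as an exception. Per kb of exon, a scale on which levels of different genes can be compared, DPYSL5 stood highest in control at 64.2 ± 3.26 CPM per kb (SD, n = 3), followed by STMN3 at 53.8 ± 2.34, NEFM at 50.4 ± 5.14 and NEFL at 49.02 ± 9.97 CPM per kb. The last 3 lay within the spread of each other, and DPYSL5 lay above them by more than the SDs. RBFOX2, an RNA-binding gene (44.9 ± 2.58 CPM per kb), DPYSL4 (43.5 ± 3.58) and MAP2 (42.3 ± 2.57) came next and overlapped, as did DPYSL2 (37.2 ± 1.24) and TUBB3 (34.7 ± 7.37) after them. DPYSL2 to DPYSL5 and CRMP1 encode collapsin response mediator proteins, which link semaphorin signals to microtubules. NEFL and NEFM encode the light and medium neurofilament subunits, MAP2 a dendritic microtubule-associated protein and TUBB3 a neuronal beta-tubulin.

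Other cytoskeletal markers of neurons were near silence. DCX, the doublecortin gene of migrating neurons, had 7, 1 and 1 counts in the control and 1, 4 and 3 in the knockdown libraries. MAPT, the gene of the axonal protein tau, had 26 counts over all libraries, STMN2 had 2 and STMN4 had 9. MAP2 and TUBB3 were thus abundant in libraries where the mean of DCX, MAPT and STMN2 was below 1 CPM in both groups. TUBB3 shares exon sequence with AC092143.1 on the same strand, so its level is less certain than that of MAP2.

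**Figure D1:**
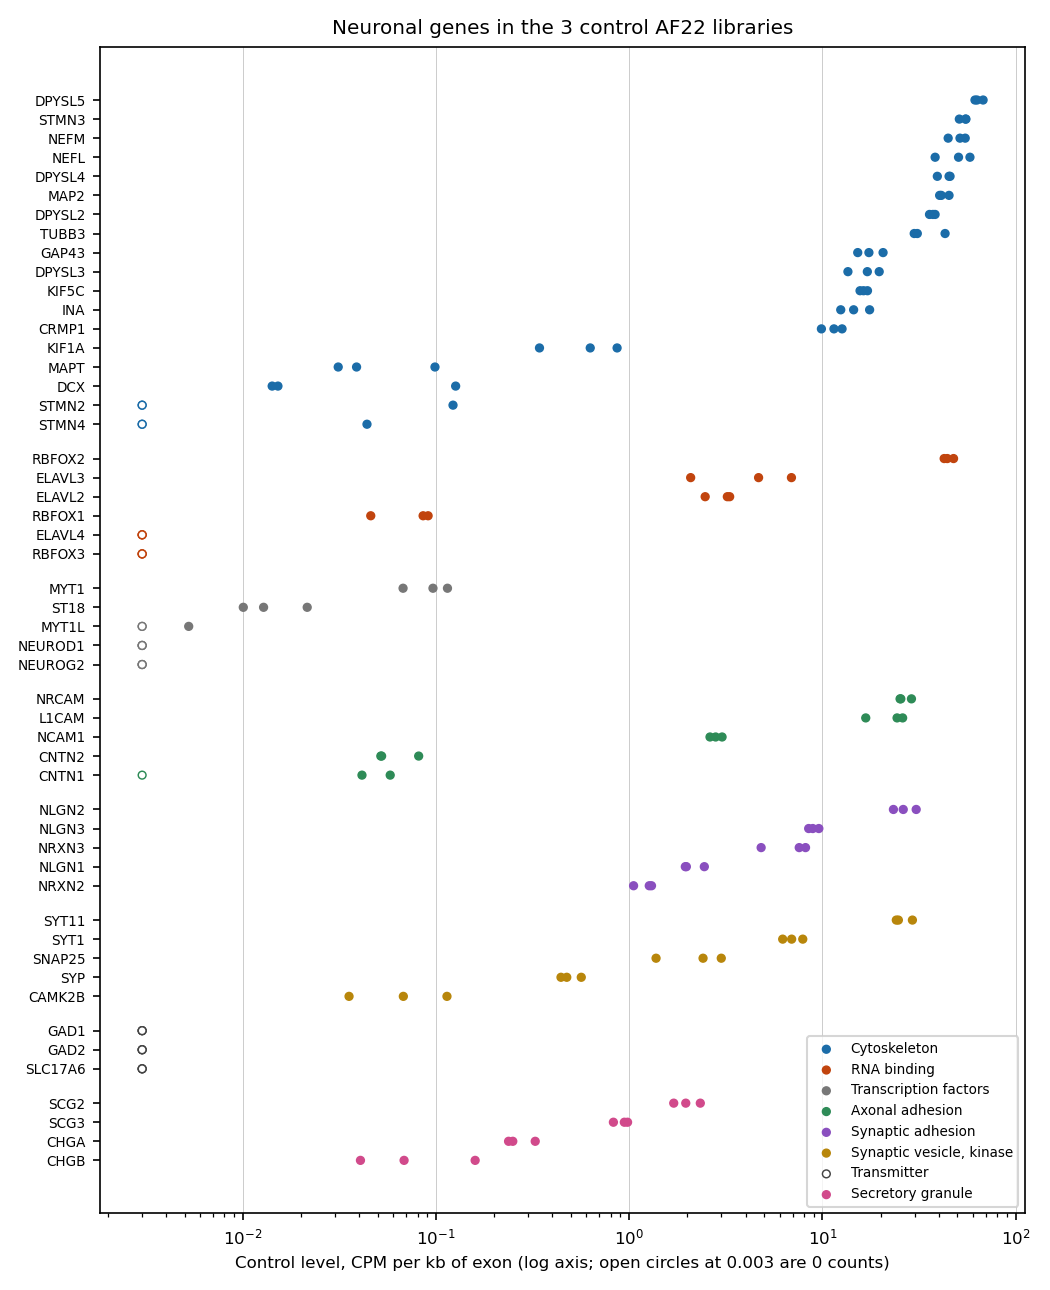
Level of each of the 51 genes in the 3 control libraries, in CPM per kb of exon on a log axis, grouped and coloured by role; each circle is a library, and open circles mark 0 counts. DPYSL5 is the highest at a mean of 64.2 CPM per kb, while GAD1, GAD2, SLC17A6, NEUROD1 and NEUROG2 have 0 counts in all 3 libraries.

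The test without pairing called none of the 51 genes, and edgeR called 0 of the 12937 genes tested (0%) in it. At an unadjusted p under 0.05 it held 6 of the 31 tested genes (19.4%), against 14.4% of all genes, and neither DESeq2 nor limma voom without pairing called any of the 51. The paired edgeR fit called 6 of the 31 genes (19.4%), where 10% of all genes tested were called. ELAVL3, NEFM, DPYSL3, NRXN3 and STMN3 fell (5 genes, 16.1%, against 5.39% of all genes), and RBFOX2 rose (1 gene, 3.23%, against 4.63%). Without pairing their adjusted p ran from 0.267 to 0.524. With pair 2 left out the paired fit called 12 of the 31 genes (38.7%), 8 lower and 4 higher, among them all 6, and it called 17.9% of all genes. Paired fits with a pair left out, here and below, hold few libraries. Their p-values lean heavily on the spread estimated across all genes and are less secure.

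**Figure D2:**
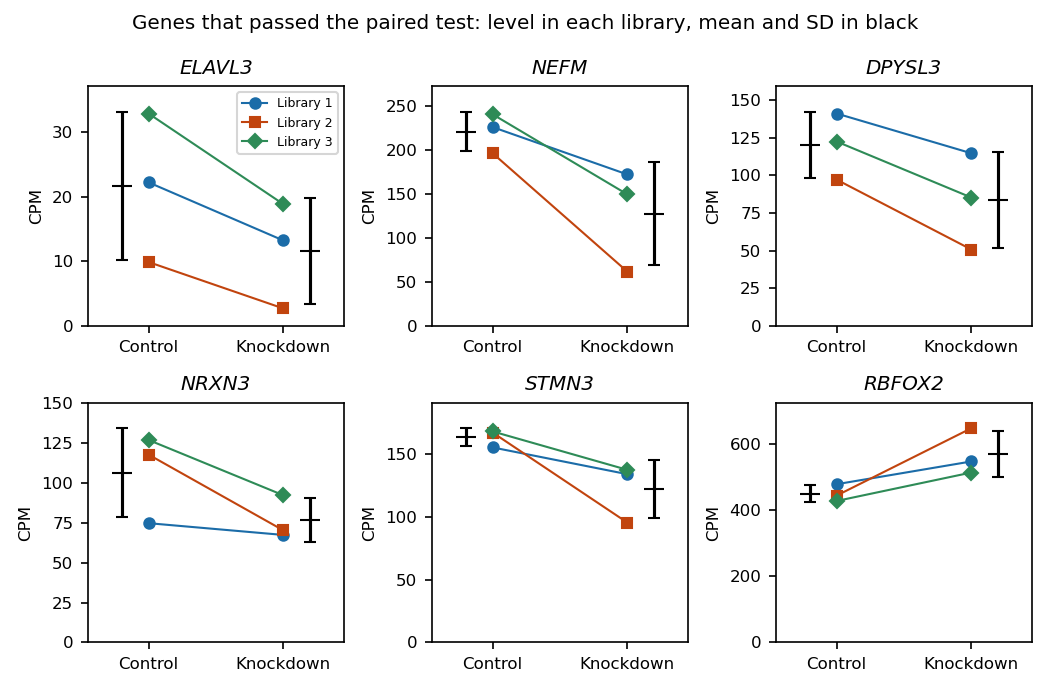
Level in CPM of the 6 genes that passed the paired test, with control and knockdown libraries of the same number joined by a line; black bars are the group mean and SD (n = 3). Every line falls for ELAVL3, NEFM, DPYSL3, NRXN3 and STMN3 and rises for RBFOX2, with log2 differences in pair 2 from -1.76 for ELAVL3 to 0.545 for RBFOX2.

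Among the cytoskeletal genes 3 of 14 tested fell in the paired fit (21.4%, against 5.39% of all genes) and none rose. NEFM was at 226, 196 and 240.4 CPM in control and at 172, 61.6 and 149 CPM in knockdown libraries 1, 2 and 3. All 3 knockdown libraries lay below all 3 control libraries, and knockdown library 2 was by far the lowest. The log2 fold change of NEFM was -0.89 (SE 0.193, paired edgeR adjusted p 0.0305). It was -0.56 when pair 2 was left out, and paired DESeq2 gave an adjusted p of 0.151. NEFM shares exon sequence with AF106564.1 on the opposite strand, and the sources do not state whether the counting used strand.

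DPYSL3 was at 141, 97.1 and 122 CPM in control and at 115, 50.7 and 85.2 CPM in knockdown libraries. The groups overlapped, since control library 2 lay below knockdown library 1, but each knockdown library lay below the control of its number. The paired log2 fold change was -0.58 (SE 0.109, adjusted p 0.0256). STMN3, a stathmin that destabilises microtubules, was at 155, 167 and 168 CPM in control and at 134, 95.3 and 137 CPM in knockdown libraries. Here the groups did not overlap, and the paired log2 fold change was -0.44 (SE 0.108, adjusted p 0.0416), or -0.26 without pair 2. The CpG-rich windows before both genes are printed above.

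The other cytoskeletal genes did not pass. NEFL, the partner of NEFM in the filament, was at 166, 219 and 251 CPM in control and at 156, 132 and 216 CPM in knockdown libraries (paired log2 fold change -0.35, SE 0.112, adjusted p 0.0796). GAP43, a growth cone protein, was at -0.31 (SE 0.114), TUBB3 at -0.18 (SE 0.112), and INA, which encodes alpha-internexin of the neurofilament, at -0.09 (SE 0.0888). DPYSL5 was at 481, 436 and 447 CPM in control and at 454, 373 and 406 CPM in knockdown libraries, a paired log2 fold change of -0.15 (SE 0.0636, adjusted p 0.1603). Among its relatives DPYSL2 was at -0.17, CRMP1 at -0.17 and DPYSL4 at 0.01. DPYSL3 was thus the 1 gene of these 5 to pass, where 10% of all genes tested did. Differences between the 5 were not tested. MAP2 was at 523, 477 and 467 CPM in control and at 593, 540.5 and 494 CPM in knockdown libraries (paired log2 fold change 0.15, SE 0.06303, adjusted p 0.164). The kinesin motor genes KIF5C and KIF1A were at 0.03 (SE 0.0623) and 0.07 (SE 0.158).

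Among the RNA-binding genes 1 of 3 tested fell and 1 rose in the paired fit, where 5.39% of all genes fell and 4.63% rose. With 3 genes tested, these counts say little about the role as a whole. ELAVL3, which encodes the neuronal RNA stabiliser HuC, was at 22.2, 9.89 and 32.9 CPM in control and at 13.2, 2.703 and 18.9 CPM in knockdown libraries 1, 2 and 3. The control libraries themselves spanned 3.33-fold and the groups overlapped, but each knockdown library lay below its partner. The paired log2 fold change was -0.96 (SE 0.185, adjusted p 0.0256), the lowest value of the 31 tested genes. ELAVL3 shares exon sequence with AC008481.3 on the same strand. Its close relative ELAVL2 was at 16.5, 17.00 and 12.7 CPM in control and at 22.7, 21.6 and 14.8 CPM in knockdown libraries. ELAVL2 was higher in each pair, at a paired log2 fold change of 0.34 (SE 0.123), but did not pass (adjusted p 0.111). ELAVL4 was listed at 0 counts throughout.

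RBFOX2, a splicing regulator that many cell types express, was at 478, 444 and 427 CPM in control and at 547, 647 and 513 CPM in knockdown libraries. The lowest knockdown library lay above the highest control library. The paired log2 fold change was 0.34 (SE 0.0798, adjusted p 0.03803), and the adjusted p was 0.08297 without pair 3. Of its relatives, RBFOX1 had 25 counts over all libraries and RBFOX3, the gene of the mature-neuron antigen NeuN, had 0 in each.

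None of the 5 transcription factors had enough counts for a test. MYT1, a zinc finger factor of neuronal commitment, had 4, 4 and 3 counts in the control and 2, 2 and 7 in the knockdown libraries. Its relative ST18 had 1, 2 and 1 counts in control and 1, 1 and 0 in knockdown libraries, and MYT1L had 1 count in all. The proneural genes NEUROD1 and NEUROG2 had 0 and 1 counts over the 6 libraries. The 3 transmitter genes were as low. GAD1 and GAD2, which encode enzymes of GABA synthesis, had 1 count each, and SLC17A6, the gene of a vesicular glutamate transporter, had 0. None of these 8 genes had more than 7 counts in any library of either group, so a strong rise in knockdown was not seen, and a fall from such levels could not be measured.

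None of the 3 tested axonal adhesion genes passed. NRCAM, a cell adhesion molecule of the L1 family, was at 207, 237 and 209 CPM in control and at 209, 217 and 220.1 CPM in knockdown libraries (paired log2 fold change -0.01, SE 0.0665). L1CAM, the founding gene of that family, was at 122, 177 and 189 CPM in control and at 128, 193 and 222 CPM in knockdown libraries (paired log2 fold change 0.15, SE 0.0649, adjusted p 0.176). L1CAM was higher in each pair, although its libraries differed more by number than by group. NCAM1 was at a log2 fold change of -0.05 (SE 0.0926). The contactin genes were too low to test: CNTN2 had 5, 6 and 10 counts in control and 1, 0 and 5 in knockdown libraries, and CNTN1 had 0, 2 and 3 counts in control and 2, 18 and 8 in knockdown libraries.

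All 5 synaptic adhesion genes were tested, and 1 of them fell in the paired fit (20%, against 5.39% of all genes). Neurexins sit on the presynaptic and neuroligins on the postsynaptic side of the cleft. NRXN3 was at 74.8, 118 and 127 CPM in control and at 67.4, 70.3 and 92.3 CPM in knockdown libraries. The groups overlapped through control library 1, and the paired log2 fold change was -0.47 (SE 0.103, adjusted p 0.0321). NLGN1 was at 20.03, 19.8 and 24.8 CPM in control and at 19.02, 11.2 and 15.5 CPM in knockdown libraries. Its groups did not overlap, yet it did not pass with all pairs (log2 fold change -0.54, SE 0.157, adjusted p 0.0614); with pair 2 left out its value was -0.44 (adjusted p 0.0104). NLGN2, the neuroligin of inhibitory synapses, was at 129, 169.7 and 145 CPM in control and at 112, 179 and 153 CPM in knockdown libraries (paired log2 fold change -0.01, SE 0.07501). NLGN3 was at 33.99, 35.7 and 38.4 CPM in control and at 31.8, 48.4 and 38.2 CPM in knockdown libraries (paired log2 fold change 0.13, SE 0.116), and NRXN2 was at -0.14 (SE 0.148). The groups of NLGN2 and NLGN3 overlapped.

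Of the vesicle and kinase genes 4 were tested and none passed. SYT11, a synaptotagmin that does not bind calcium, was at 126, 153 and 129.6 CPM in control and at 146, 167 and 148 CPM in knockdown libraries (paired log2 fold change 0.17, SE 0.0623, adjusted p 0.109). SYT1, the calcium sensor of transmitter release, was at 40.4, 44.98 and 51.4 CPM in control and at 50.9, 57.8 and 58.04 CPM in knockdown libraries. It was higher in all 3 pairs, at a log2 fold change of 0.29 (SE 0.0826, adjusted p 0.0608). SYP and SNAP25, classical markers of vesicles and of membrane fusion, were low, at 2.57 ± 0.328 and 7.58 ± 2.75 CPM in control (SD, n = 3). Their log2 fold changes of -0.55 (SE 0.313) and 0.15 (SE 0.196) had wide errors. CAMK2B, a synaptic kinase gene, had 2 to 6 counts in each library.

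Secretory granule genes were low as well. SCG2, a granin, was at 5.33, 6.34 and 4.62 CPM in control and at 4.14, 5.001 and 7.65 CPM in knockdown libraries. SCG3, whose RE1 match is printed above, was at 3.12, 3.25 and 2.74 CPM in control and at 2.89, 2.03 and 2.095 CPM in knockdown libraries. The groups of both genes overlapped, and neither passed (adjusted p 0.859 and 0.352). CHGA and CHGB, the chromogranin genes, had 35 and 21 counts in all and were not tested.

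**Figure D3:**
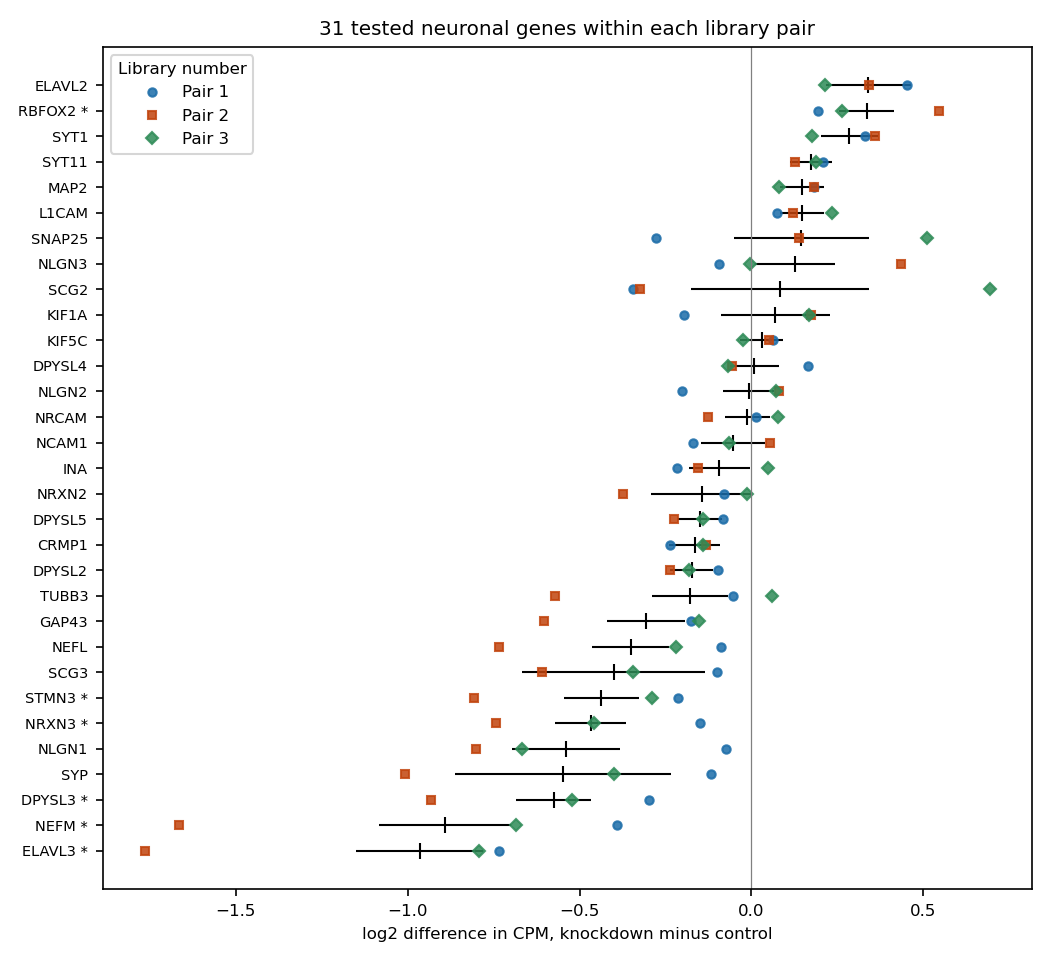
log2 difference in CPM, knockdown minus control, within each library pair for the 31 tested genes, ordered by the paired fit; black marks and bars are the paired log2 fold change and its SE, and an asterisk marks an adjusted p under 0.05. Pair 2 reaches -1.76 for ELAVL3, while ELAVL2, RBFOX2, SYT1, SYT11, MAP2 and L1CAM lie right of 0 in each pair.

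Over all tested genes of the list the shift was small. The median paired log2 fold change of the 31 was -0.09, against 0.00 for all genes tested, with 19 genes below and 12 above 0. It was -0.17 for the 14 cytoskeletal genes, -0.14 for the 5 synaptic adhesion genes and 0.16 for the 4 vesicle genes. Within pairs 1, 2 and 3 the median was -0.10, -0.15 and -0.02. The sign was the same in all 3 pairs for 20 of the 31 genes (64.5%), against 52.3% of all genes. Pair 2 gave the largest of the 3 differences in 18 of the 31 genes (58.1%), as it did in 57.8% of all genes. The groups did not overlap in 5 of the 31 genes (16.1%), against 20.5% of all genes tested; STMN3, NEFM, DPYSL2 and NLGN1 were lower (11.2% of all genes were) and RBFOX2 was higher (9.28% of all genes were).

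Several genes followed the library number in both groups. TUBB3 was at 137, 132 and 191 CPM in control and at 132, 88.9 and 199 CPM in knockdown libraries, so library 3 was the highest of both groups and library 2 the lowest. KIF1A, a motor of synaptic vesicle precursors, ran from 5.72 to 14.4 CPM in control and from 6.49 to 16.2 CPM in knockdown libraries in the same order. INA and ELAVL3 had that order too. In all, 10 of the 31 genes (32.3%) were highest in library 3 of both groups, where 13.5% of all genes were, and 10 of 31 (32.3%) were lowest in library 2 of both, where 20.1% of all genes were. The first 10 were TUBB3, STMN3, NEFL, INA, GAP43, KIF1A, ELAVL3, L1CAM, NRXN3 and SYT1, a pattern noticed after the values were seen. Across the 31 genes, which are not independent, the correlation between control and knockdown deviations was 0.596 for number 1, 0.827 for number 2 and 0.822 for number 3. The labels do not say what the number stands for.

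**Figure D4:**
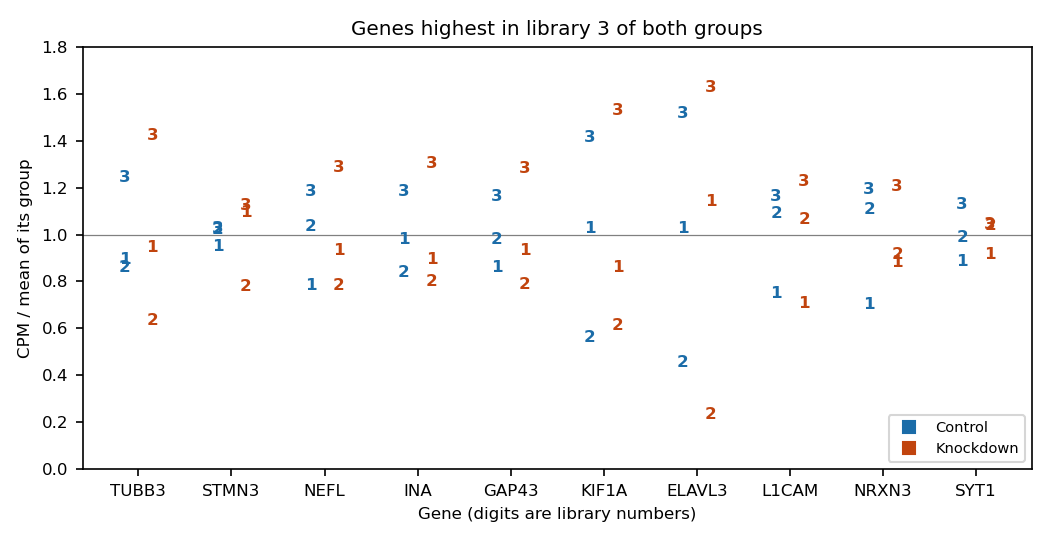
CPM of each library divided by the mean of its group, for the 10 genes that were highest in library 3 of both groups; digits give the library number, blue for control and orange for knockdown. ELAVL3 and KIF1A span the most, 3.33-fold and 2.52-fold among the control libraries, and library 2 is the lowest of both groups for TUBB3, INA, KIF1A and ELAVL3.

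Further genes were taken from 7 lists, 6 of neuronal genes and 1 of 19 regulators that repress them. The lists, here and in the paragraphs below, were chosen with earlier results of these data known. Their shares of calls are therefore a description and not a test of the list. Of 174 such genes outside the 51, 114 were tested, and the paired fit called 17 (14.9%, against 10% of all genes), 9 higher and 8 lower. The repressor list held 2 of the higher and 1 of the lower calls. The edgeR test without pairing called 0 of them, with 20 of 114 at an unadjusted p under 0.05 (14.4% of all genes were), and DESeq2 without pairing called 3, of 142 over all genes. The median paired log2 fold change of the 114 was -0.01. MAP1B, a microtubule-associated protein of growing axons, was at 844, 715 and 736 CPM in control and at 544, 221 and 409 CPM in knockdown libraries. Its groups lay far apart, with a paired log2 fold change of -1.05 (SE 0.168, adjusted p 0.0222). It was the 1 gene to pass among 21 tested further cytoskeletal genes (4.76%, against 10% of all genes). Of 21 further vesicle genes 2 passed (9.52%, against 10% of all genes). RIMS2, an active zone scaffold, was at a paired log2 fold change of -0.82 (SE 0.1799, adjusted p 0.0316). SYPL1, a relative of synaptophysin found in many tissues, was at -0.33 (SE 0.0747, adjusted p 0.03299) and lost its call without pair 1 (adjusted p 0.05096) and without pair 3 (0.207). None of 17 postsynaptic genes passed in either edgeR fit.

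Of 19 tested further adhesion genes 4 rose and 1 fell in the paired fit (26.3% together, against 10% of all genes). NCAM2 was at a log2 fold change of 0.82 (SE 0.185), ALCAM at 0.49 (SE 0.0975), NTM at 0.61 (SE 0.163) and LRRN3 at 0.33 (SE 0.0742). CADM1, a synaptic adhesion molecule, was at -0.46 (SE 0.102). Without pair 3 the calls of NCAM2 (adjusted p 0.0748), NTM (0.309) and LRRN3 (0.116) were lost, and without pair 2 ALCAM was at 0.32.

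Among neurogenic transcription factors 9 of 30 had enough counts, and 1 rose and 1 fell (22.2% of the 9 together, against 10% of all genes). HES6, which favours neuronal differentiation, was at a log2 fold change of -0.78 (SE 0.166, adjusted p 0.0292), or -0.52 without pair 2. NHLH2, from a control level of 1.48 ± 0.325 CPM (SD, n = 3), was at a log2 fold change of 1.205 (SE 0.317, adjusted p 0.0473). It lost its call without pair 1 (adjusted p 0.0537) and without pair 2 (0.311, at 0.73). Of 8 tested neuropeptide genes 4 passed (50%, against 10% of all genes), in a list chosen with earlier results of these data known. The processing enzymes CPE (0.67, SE 0.166) and PAM (0.40, SE 0.0945) rose. The prohormone convertase gene PCSK2 (-0.74, SE 0.184) and the neuromedin gene NMB (-1.41, SE 0.339) fell. Without pair 2 CPE was at 0.36, PAM at 0.25 and PCSK2 at -0.47, and without pair 3 NMB had an adjusted p of 0.0854.

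Regulators that hold neuronal genes down were all expressed, and 3 of 19 passed in the paired fit (15.8%, against 10% of all genes). REST was at 86.5, 78.7 and 78.6 CPM in control and at 96.98, 113 and 92.6 CPM in knockdown libraries. Each knockdown library lay above each control library, and the paired log2 fold change was 0.31 (SE 0.0839, adjusted p 0.0498), just within the threshold. It was 0.20 without pair 2, and the adjusted p was 0.0998 without pair 3. CTDSPL, a phosphatase that acts with REST, was at 87.6, 86.4 and 98.1 CPM in control and at 112, 165 and 137 CPM in knockdown libraries (paired log2 fold change 0.60, SE 0.105, adjusted p 0.0244). PTBP2, a splicing regulator of developing neurons, was at 56.4, 56.7 and 47.03 CPM in control and at 38.7, 30.7 and 35.9 CPM in knockdown libraries (paired log2 fold change -0.60, SE 0.108, adjusted p 0.0246). The groups of neither gene overlapped. PTBP1, the counterpart of PTBP2 outside neurons, was at 401 to 556 CPM and did not pass (adjusted p 0.161).

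Markers of other states moved in the same libraries. These lists too were chosen with earlier results of these data known, so their shares are a description. The summed level of 26 cell division genes was 5428 to 6339.97 CPM in control and 2864 to 5463 CPM in knockdown libraries, lowest in knockdown library 2. In the paired fit 25 of the 26 fell (96.2%, against 5.39% of all genes). The summed level of 10 mesenchymal genes was 2279 to 2548 CPM in control and 2619 to 3206 CPM in knockdown libraries. In the paired fit 2 of the 10 were called higher (20%, against 4.63% of all genes) and all 10 lay above 0. COL3A1 alone was at 900 to 1168 CPM in control and 1158 to 1680 CPM in knockdown libraries. The groups overlapped in each of the 10 genes. For 10 astroglial genes the sum was 772 to 815 CPM in control and 866 to 963 CPM in knockdown libraries. Of 7 tested, GJA1, APOE and SPARCL1 were called higher in the paired fit (3 genes, 42.9%, against 4.63% of all genes). The list was split, with 5 of the 7 above 0 and 2 below. Of the 4 not called, S100B was at a paired log2 fold change of 0.23, SLC1A3 at 0.04, CD44 at -0.14 and AQP4 at -0.24. The defining markers GFAP and ALDH1L1 had at most 0.135 and 0.2703 CPM in any library. The 18 neural stem genes summed to 4464 to 4753 CPM in control and 3914 to 5094 CPM in knockdown libraries, and none of 16 tested passed in either edgeR fit. Of the oligodendrocyte, neural crest and pluripotency lists 5, 7 and 3 genes were tested, and none passed in either edgeR fit. The part of these marker lists in the values of the neuronal genes was not tested. In bulk RNA, fewer cells of a type and less RNA per cell cannot be told apart.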

How the data were processed

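The files hold 1 table for each of the 6 RNA-seq libraries with whole-number read counts by gene symbol, as deposited and with no normalization, judged from the values. Per the labels, libraries were made with a directional kit. The submitters' processing notes list the build hg38, STAR 2.7.10a, Trim Galore 0.6.6 and bedtools; what counted the reads, with which gene models and whether by strand, is not given in the sources used here. Counts of genes that overlap or have close paralogs are therefore less certain.

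In R 4.3.3, edgeR 4.0.16 was run on the deposited counts: filterByExpr (12937 genes kept), TMM scaling, the quasi-likelihood test with group as its only term, and Benjamini-Hochberg adjustment over all genes at 0.05. The paired fit adds the library number as a block. Over the tested genes, deviations of libraries with the same number correlated at 0.563, 0.467 and 0.535; each is above 0.1, the bound used for pairing, which comes from the data and not from the labels. The SE is the size of the log2 fold change divided by the square root of F. CPM uses TMM-scaled totals, log2 CPM a prior count of 2, and exon lengths and overlaps come from GENCODE 29 (GRCh38). Within groups every pair of libraries differed beyond sampling noise (chi-square per gene at least 3.19). Alternatives included DESeq2 1.42.0 and limma 3.58.1, other scalings and filters, thinning, a GC and length trend, and leaving out libraries or pairs.

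Values by library are given for genes that passed either fit and for the 2 genes of each role highest per kb in control; from the further lists, genes that passed were named, at most 5 a list. ELAVL2, NEFL, MAP2, NLGN1, TUBB3, PTBP1 and most of the untested genes were added after their values were seen. The 51 genes and all lists were chosen with earlier results of these data known. The tests were tried on simulated counts drawn from a fit that held the library number as a block. That trial cannot decide whether the paired fit is right for these data, since the block was built into it.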

Additional observations from a re-analysis of the deposited data

How the results depend on the processing

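The 6 genes called in the paired fit kept their direction under all 12 paired alternatives. Each had the same sign in all 3 pairs, so their direction could hardly change. The calls of DPYSL3, ELAVL3, NRXN3 and STMN3 held in 11 of the 12, and those of NEFM and RBFOX2 in 10. With an adjusted p of 0.01 as threshold, 0 of the 51 and 0 of the further genes passed, where 12 of the 12937 genes tested did. Against the test without pairing, the replicate block moved the count of called genes from 0 to 6 of the 51 and from 0 to 17 of the further genes. Among the latter, DESeq2 without pairing called 3 (142 over all genes), and leaving out 1 library gave 0 to 8, with 8 without knockdown library 1 (665 over all genes). In the paired fit, leaving out 1 pair gave 6 to 12 of the 51 and 14 to 23 of the further genes. Over all genes it gave 1320 without pair 1, 2296 without pair 2 and 912 without pair 3, against 1296 with all pairs. Paired DESeq2 called 7 of the further genes, and 11 were called with libraries thinned to the smallest total; over all genes these settings called 590 and 1010, against 1296. The median of the 31 tested genes without pairing (-0.08) ran from -0.18 to -0.013 with 1 library left out, and the paired median (-0.09) from -0.17 to -0.04 with 1 pair left out. BMI1 passed at -1.61 with no filter (adjusted p 0.00645), at -1.59 in DESeq2 and at -1.64 with the replicate block. With 1 library left out and no pairing its log2 fold change ran from -1.87 to -1.44, and it passed without knockdown library 1. The cause of these differences was not tested. The filter on low counts left 20 of the 51 genes untested, and 11 of those had fewer than 10 counts in all.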
